A study of Mus musculus with 6 samples.

Results

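The guanylate-binding proteins described here are the products of 10 mouse genes, Gbp2, Gbp2b (formerly named Gbp1) and Gbp3 to Gbp10. They were taken as every probe that carries 1 of these gene symbols, which gave 12 of the 56605 probes on the array and 10 of the 24342 genes with a symbol. The family was singled out with results of the MOTS-c comparison known, among them the signal of Gbp2, so the differences between the treatments below are a description and were not tested as a finding.

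RNA came from whole spleens of NOD mice, all female, which are prone to an autoimmune diabetes that arises without any induction. Both groups were of this strain, and the mice were 6 weeks old on arrival. The MOTS-c group received the small mitochondrial-derived peptide MOTS-c intraperitoneally at 0.5 mg/kg/day, and the vehicle group received a scrambled form of the same peptide, whose dose the labels do not give apart. The mice were killed at the age of 18 weeks, after a night without food. Each group has 3 samples, each read on its own 1-colour Agilent array, and the arrays are named vehicle 1 to 3 and MOTS-c 1 to 3. Whether each sample was 1 mouse or a pool is not stated in the labels, so every standard error and p-value measures only the spread between these samples.

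Guanylate-binding proteins are large GTPases related to the dynamins that cells make in response to interferons, above all interferon gamma, with IRF1 among the transcription factors involved. They assemble on vacuoles that hold parasites or bacteria and on bacteria free in the cytosol, break these membranes open with the help of the immunity-related GTPases, and pass bacterial products to the inflammasome. In the spleen they are made by lymphocytes as well as by macrophages and dendritic cells, and their level is widely used as a readout of interferon exposure.

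The genes lie in 2 clusters. In the RefSeq annotation of GRCm38.p6, Gbp5, Gbp7, Gbp3, Gbp2b and Gbp2 follow each other on chromosome 3 and Gbp8, Gbp9, Gbp4, Gbp10 and Gbp6 on chromosome 5, with 0 other protein-coding genes between them in either cluster. Promoters of the 5 chromosome 3 genes were available from RefSeq; Gbp4, Gbp6, Gbp8, Gbp9 and Gbp10 had no entry. They are shown with matches to the letters of elements known for interferon responses, and whether interferons act through these matches was not tested. Each line gives the 170 bases before the annotated start, on the plus strand of GRCm38.p6, a build other than that of the probe coordinates given below, and of the reference genome, not of NOD mice. Capitals mark matches to the core of the interferon-stimulated response element (ISRE) and to the interferon gamma activated site (GAS), searched as TTCNNNGAA, both on either strand.
Gbp5 (chr3:142496764-142496933): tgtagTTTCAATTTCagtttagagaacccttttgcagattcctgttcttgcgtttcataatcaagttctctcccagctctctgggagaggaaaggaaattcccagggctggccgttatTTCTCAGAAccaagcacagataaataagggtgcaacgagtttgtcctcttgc
Gbp7 (chr3:142530166-142530335): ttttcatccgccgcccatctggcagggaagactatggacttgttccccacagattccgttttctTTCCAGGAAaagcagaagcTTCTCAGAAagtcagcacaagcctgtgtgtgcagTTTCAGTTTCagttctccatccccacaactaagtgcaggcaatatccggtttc
Gbp3 (chr3:142559874-142560043): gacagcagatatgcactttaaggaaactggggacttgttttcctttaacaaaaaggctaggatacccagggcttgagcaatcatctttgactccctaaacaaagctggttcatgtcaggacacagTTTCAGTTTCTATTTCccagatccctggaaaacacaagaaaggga
Gbp2b (chr3:142594677-142594846): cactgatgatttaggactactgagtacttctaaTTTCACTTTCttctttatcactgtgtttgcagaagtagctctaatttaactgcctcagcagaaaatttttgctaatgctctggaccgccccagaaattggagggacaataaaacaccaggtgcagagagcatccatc
Gbp2 (chr3:142620493-142620662): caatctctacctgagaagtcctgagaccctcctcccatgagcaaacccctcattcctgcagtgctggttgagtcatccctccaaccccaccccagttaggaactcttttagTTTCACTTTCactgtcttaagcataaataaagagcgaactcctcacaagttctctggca

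All 5 genes held the ISRE core, in 5 of their 6 windows of 300 bases, while 3.44% of all 32851 RefSeq promoter windows of that length held it. Every match was on the minus strand, so it reads as TTTC, any 2 bases and TTTC in the lines above. Gbp2 and Gbp2b carried the same letters, TTTCACTTTC, from base -59 and base -137 counted from the start, and Gbp7 and Gbp3 shared TTTCAGTTTC, from base -53 and base -45. In Gbp3 a further match from base -39 overlapped the earlier one, which made 3 GAAA repeats spaced 2 bases apart, a pattern found in 0.116% of windows; the other Gbp3 window, at a later start, held no match. The GAS letters occurred in Gbp5 and Gbp7 only, against 8.30% of all windows, and both genes had TTCTCAGAA, from base -52 in Gbp5 and from base -87 in Gbp7. Gbp7 had another, TTCCAGGAA, from base -106, and Gbp5 another outside the stretch printed, from base -245. A match is a run of letters and not a measured binding site.

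All 12 probes gave a signal in the spleen: 11 were well above background on all 6 arrays, and the Gbp2b probe on 5 of 6, the exception being vehicle 1. The tissue label was checked against spleen markers: 14 of 14 T cell genes with a probe, 11 of 11 B cell genes and 12 of 12 macrophage genes were well above background on all 6 arrays. Across arrays, 61.8% to 64.0% of spots were well above background and 0 were saturated. The 75th percentile of the signal was 678, 841 and 852 on vehicle 1, 2 and 3 and 915, 900 and 926 on MOTS-c 1, 2 and 3. Every vehicle array was thus below every MOTS-c array in this percentile, with vehicle 1 the lowest, and its part in the differences was not tested. Levels below are log2 of the processed signal minus that percentile of the same array, so a level of 0 is a signal at the percentile and each unit is a doubling; since probes bind with unequal strength, levels are compared between arrays and never between probes. Each difference is the MOTS-c mean minus the vehicle mean on this log2 scale with its standard error from limma, from 3 arrays against 3.

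Guanylate-binding protein transcripts had higher means with MOTS-c for all 10 genes, by a median of 0.83 on the log2 scale, or 1.78-fold, with a range from 1.22-fold for Gbp7 to 3.84-fold for Gbp2b. Gbp2b was tested only because all its MOTS-c arrays, where it was high, were well above background. Among probes well above background on all 6 arrays, the median of the 9 genes left was 0.81, with Gbp6 highest at 3.20-fold. Over all 33734 tested probes the median difference was 0.024, and 52.2% of them, or 51.5% of genes by their brightest probe, were higher. Of the 12 probes, 11 were higher and 1, the second Gbp5 probe, was lower. For 9 of the 12 probes, and 8 of the 10 genes by their brightest probe, each MOTS-c array lay above each vehicle array, a pattern that 16.3% of all tested probes and 15.8% of all genes showed. Because the family was chosen on this contrast, nothing is read from that gap. The vehicle 1 array had the lowest value of 11 of the 12 probes, as it had for 29.6% of all probes, and without it the median difference of the 10 genes was 0.56 with all 10 still higher. Per the file headers vehicle 1 and 2 shared 1 slide and vehicle 3 lay with the MOTS-c arrays on another, and within that slide the median was 0.63 with 9 of 10 genes higher. In RNA of a whole spleen, fewer cells of a type and less RNA per cell cannot be told apart.

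**Figure D1:**
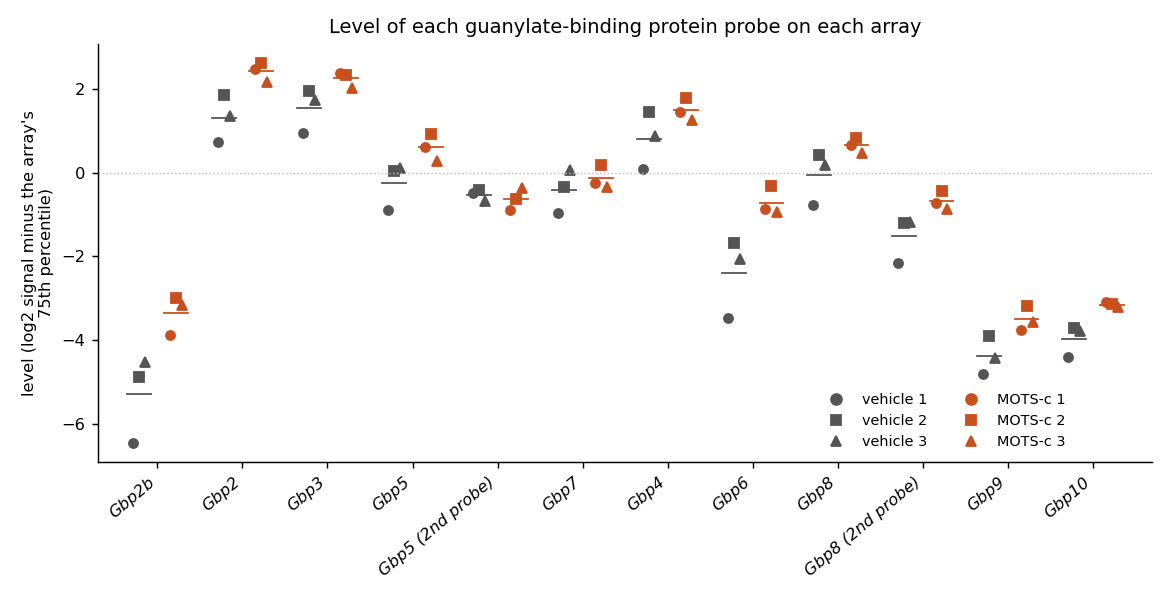
Level of each of the 12 probes (vertical axis, log2 signal minus the array's 75th percentile) on each of the 6 arrays, with vehicle in grey, MOTS-c in orange, 1 marker shape per array number and a line at each group's mean. The vehicle 1 circle is the lowest point of every probe but the second of Gbp5, and for 9 probes all orange points lie above all grey ones.

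Among the members that carry a lipid anchor at their C-terminus, Gbp2b had the largest difference of the family with all 6 arrays. That rank was lost within slide 2 or when slide was fitted as a block, with 1.17 for Gbp2b beside 1.33 for Gbp6, and with normexp background correction, where Gbp2b was at 0.72 beside 1.32 for Gbp6, 1.14 for Gbp2 and 0.87 for Gbp5. The level of Gbp2b was -6.44, -4.88 and -4.51 on vehicle 1, 2 and 3 and -3.87, -2.98 and -3.16 on MOTS-c 1, 2 and 3. The MOTS-c arrays all lay above the vehicle arrays, with 0.65 between the nearest values, while the vehicle arrays spread over more than the MOTS-c arrays did. The mean was -5.28 ± 1.03 (SD, n = 3) in vehicle and -3.34 ± 0.47 (SD, n = 3) with MOTS-c, a difference of 1.94 ± 0.50 (SE). This was a dim probe whose vehicle 1 signal was not well above background, and without that array the difference was 1.36 ± 0.29, or 2.56-fold. The array design gives no coordinates for it.

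Gbp2, which gathers on vacuoles of Toxoplasma and on cytosolic bacteria, was measured by a probe at chr3:142300719-142300778 of mm9, the build of the array design. Its level was 0.73, 1.83 and 1.35 on the vehicle arrays and 2.48, 2.61 and 2.15 on the MOTS-c arrays, in the order of their numbers. The groups did not overlap, and MOTS-c 3 stood 0.32 above vehicle 2, the nearest vehicle array. The difference was 1.10 ± 0.29, or 2.15-fold; it was 0.82 ± 0.22 without vehicle 1. Against vehicle 2 alone the mean of the MOTS-c arrays was higher by 0.58.

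Gbp5, known for promoting assembly of the NLRP3 inflammasome, was covered by 2 probes that went different ways. The brighter probe, at chr3:142184779-142184838 of mm9, read -0.90, 0.039 and 0.12 on the vehicle arrays and 0.62, 0.91 and 0.29 on the MOTS-c arrays. The groups were apart, with MOTS-c 3 the lowest of its group, and the difference was 0.85 ± 0.31, or 0.53 ± 0.21 without vehicle 1. The second probe lay 3353 bases upstream, at chr3:142181426-142181485, and read -0.49, -0.42 and -0.67 on vehicle and -0.90, -0.64 and -0.37 on MOTS-c arrays. Here the groups overlapped, MOTS-c 1 was the lowest and MOTS-c 3 the highest array, and the difference of -0.11 ± 0.18 was smaller than its standard error. Which exons or isoforms the 2 probes read was not determined. The middle 30 of the 60 bases of each, positions 16 to 45, are printed because the pair disagree.
Gbp5, brighter probe: gatttctcactattctaagcctgtctctgt
Gbp5, second probe: tcgcctgtcctagaaactgttggcctcttt

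The remaining chromosome 3 genes were Gbp3 and Gbp7. Gbp3 belongs to the cluster whose loss leaves mice open to Toxoplasma, and its probe at chr3:142236072-142236131 of mm9 read 0.95, 1.93 and 1.74 on vehicle and 2.38, 2.33 and 2.01 on MOTS-c arrays. The groups did not overlap, though MOTS-c 3 lay only 0.080 above vehicle 2. The difference was 0.70 ± 0.27, and 0.41 ± 0.17 without vehicle 1. Gbp7, which brings oxidase subunits and autophagy proteins to bacterial vacuoles, read -0.98, -0.35 and 0.061 on vehicle and -0.24, 0.18 and -0.35 on MOTS-c arrays, by a probe at chr3:142209379-142209438. Its groups overlapped, vehicle 3 lay above MOTS-c 1 and MOTS-c 3, and the difference of 0.28 ± 0.29 was no larger than its standard error. Without vehicle 1 the Gbp7 difference was 0.0050 ± 0.22, and against vehicle 3, the only vehicle array on the slide that held the MOTS-c arrays, it was -0.20.

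On chromosome 5, Gbp6 had the largest difference. Gbp6, which is among the members seen on Toxoplasma vacuoles, read -3.46, -1.67 and -2.05 on vehicle and -0.87, -0.32 and -0.95 on MOTS-c arrays, by a probe at chr5:105700081-105700140 of mm9 on the minus strand. The lowest MOTS-c array was 0.72 above the highest vehicle array, the widest gap of the 12 probes. The difference was 1.68 ± 0.45, or 3.20-fold, and without vehicle 1 it was 1.14 ± 0.24, or 2.21-fold.

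Gbp4, described as a restraint on the interferon regulator IRF7, read 0.076, 1.44 and 0.86 on vehicle and 1.44, 1.77 and 1.26 on MOTS-c arrays, by a probe at chr5:105544852-105544911. Its groups overlapped, since MOTS-c 3 was below vehicle 2. The difference was 0.70 ± 0.34, and 0.34 ± 0.24 without vehicle 1. Against vehicle 2 alone the MOTS-c mean was higher by only 0.053.

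Gbp8 was covered by 2 probes 184 bases apart that moved alike. The brighter, at chr5:105443767-105443826, read -0.78, 0.42 and 0.19 on vehicle and 0.66, 0.83 and 0.46 on MOTS-c arrays, a difference of 0.71 ± 0.31. The other read -2.16, -1.20 and -1.18 on vehicle and -0.73, -0.43 and -0.88 on MOTS-c arrays, a difference of 0.83 ± 0.29. In both, the groups did not overlap and vehicle 1 was the lowest array, and without it the differences were 0.35 ± 0.17 and 0.51 ± 0.17.

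Gbp9 and Gbp10 were dim in this tissue on this array, but well above background throughout. Gbp9, another member seen on Toxoplasma vacuoles, read -4.81, -3.90 and -4.42 on vehicle and -3.74, -3.17 and -3.56 on MOTS-c arrays. Its probe maps to chr5:105523238-105523479, a span of 242 bases for a 60-base sequence. Gbp10 read -4.39, -3.70 and -3.77 on vehicle and -3.08, -3.14 and -3.21 on MOTS-c arrays, by a probe at chr5:105644753-105644812. Neither gene's groups overlapped, and the Gbp10 arrays of the MOTS-c group were the tightest of the family, with an SD of 0.067. The differences were 0.89 ± 0.27 for Gbp9 and 0.81 ± 0.21 for Gbp10, and 0.67 ± 0.24 and 0.59 ± 0.13 without vehicle 1.

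**Figure D2:**
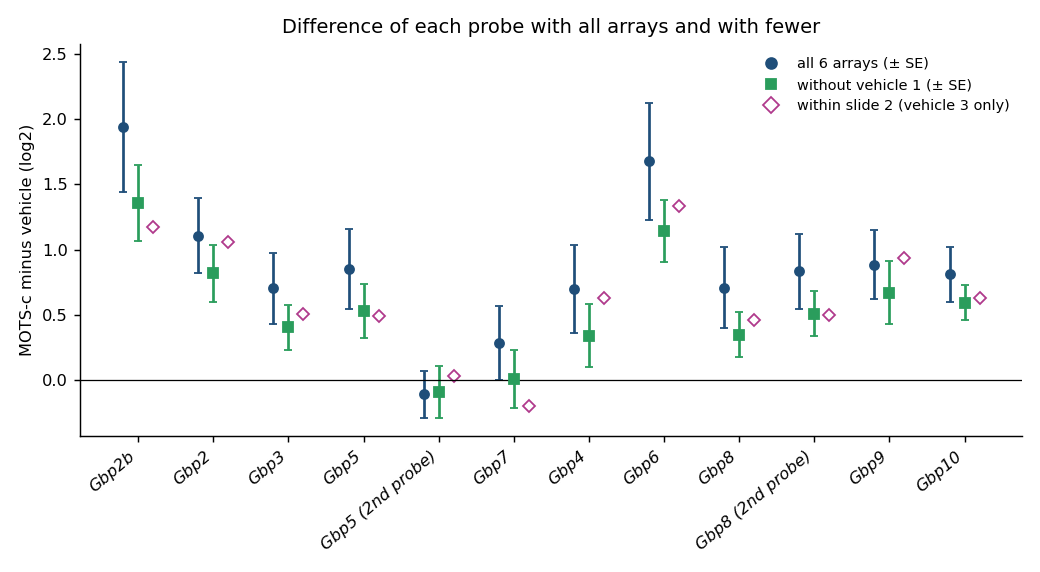
Difference of each probe, MOTS-c minus vehicle (vertical axis, log2), with all 6 arrays (circles), without vehicle 1 (squares), both ± SE, and against vehicle 3, the only vehicle array on slide 2 (diamonds, no error). Gbp2b and Gbp6 stand highest in each series, and the second Gbp5 probe and Gbp7 lie near or below 0.

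The 2 clusters had like differences: the median was 0.85 over the 5 chromosome 3 genes (0.28 to 1.94) and 0.81 over the 5 chromosome 5 genes (0.70 to 1.68), or 0.53 and 0.59 without vehicle 1. In each cluster the groups did not overlap for 4 of 5 genes. Among the 11 member probes with a listed sequence, which leave out that of Gbp2b, no pair matched at more than 27 of 60 bases, and the longest run shared by a pair was 9 bases. Of the other probes with a listed sequence, 2 shared a run of 15 or more bases with a member probe. Probes were compared with probes and not with transcripts, so whether a probe also binds transcripts of related genes was not tested. Gbp11, which RefSeq lists as a transcribed pseudogene and which is not counted among the members, had a difference of 0.67 ± 0.30 with groups that did not overlap.

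Genes beside the clusters were taken as the 4 nearest protein-coding genes on each side, 16 in all, of which 11 were tested. Of these 6 had a higher and 5 a lower mean with MOTS-c, with a median of 0.0070 and a range from -0.93 to 0.79. Kyat3, a kynurenine aminotransferase next to Gbp2, was the only neighbour with all MOTS-c arrays above all vehicle arrays, by 0.41 ± 0.17. Gtf2b and Pkn2, beyond it, and Lrrc8c, past Gbp6, had all MOTS-c arrays below, by -0.37, -0.93 and -0.31. Abcg3, the transporter gene before Gbp8, was higher by 0.79 ± 0.40 with overlapping groups. These neighbours carried no limma call at an adjusted p under 0.05, the smallest being 0.0877 for Pkn2.

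**Figure D3:**
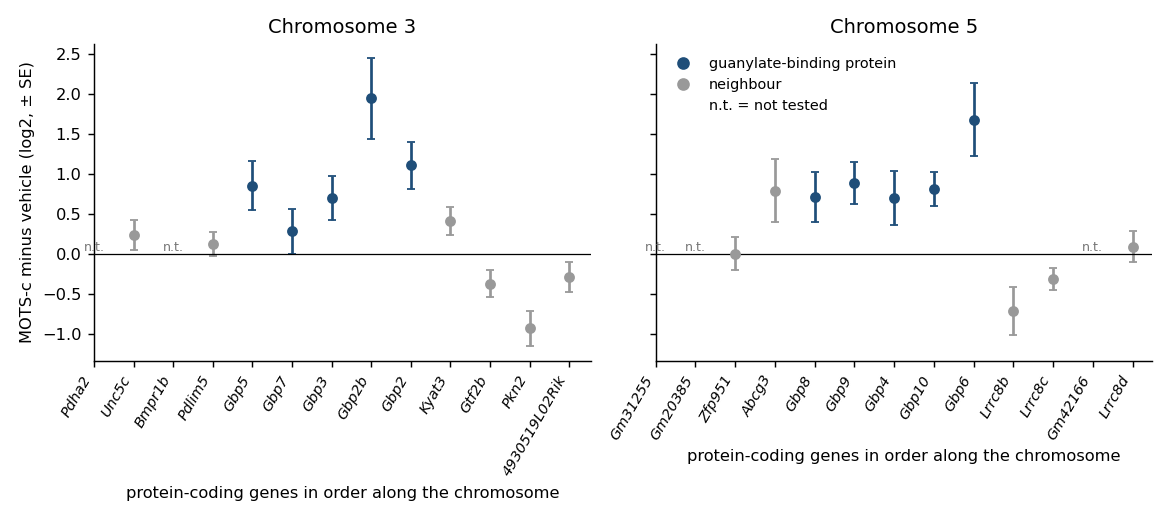
Difference ± SE (vertical axis, log2, MOTS-c minus vehicle) of the protein-coding genes in their order along chromosome 3 (left) and chromosome 5 (right), members in blue and neighbours in grey; n.t. marks neighbours that were not tested. The members lie above 0 in both clusters, and the tested neighbours lie on both sides of it.

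The members followed a shared course over the arrays. Averaged over the 10 genes, the deviation from each gene's own mean was -1.17, -0.057 and -0.22 on vehicle 1, 2 and 3 and 0.40, 0.73 and 0.32 on MOTS-c 1, 2 and 3. The group means were -0.48 ± 0.60 and 0.48 ± 0.22 (SD, n = 3). Vehicle 1 stood far below the rest, the other vehicle arrays were near the middle, and MOTS-c 2 was the highest, as it was for 9 of the 12 probes. All 10 genes had a larger SD among vehicle arrays than among MOTS-c arrays, with medians of 0.56 and 0.27; 72.7% of all tested probes had the same order, with medians of 0.27 and 0.16. By the root mean square difference from this course over the 6 arrays, Gbp5 (0.120), Gbp8 (0.139) and Gbp2 (0.149) followed it most closely. Gbp7 (0.387), Gbp6 (0.414) and Gbp2b (0.609) were farthest from it, and 45.0% of all named genes lay within the Gbp2b distance. The deviations were not scaled, so this distance mixes the size of a gene's changes with their shape. Gbp2b and Gbp6 had the largest differences of the family with all 6 arrays, 1.94 and 1.68, and Gbp7 the smallest, 0.28.

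By limma with Benjamini-Hochberg adjustment over all 33734 tested probes, 0 of the 12 member probes passed an adjusted p under 0.05, where 2 probes, or 0.00593% of all tested, did. The adjusted p-values of the 12 ran from 0.0961 for Gbp2b and Gbp10 to 0.712 for the second Gbp5 probe, and 3 lay under 0.1, where 1.43% of all tested probes were higher at that level. At an unadjusted p under 0.05 stood 8 of the 12, all higher, beside 11.3% of all tested probes. These counts come from the contrast on which the family was chosen, and nothing is read from them. Without vehicle 2, 1 member probe passed, that of Gbp2 with a difference of 1.37 ± 0.25 and an adjusted p of 0.0481, while 1113 of all probes did. In the authors' deposited table, which holds 11 of the 12 probes and not that of Gbp2b, 10 had a fold above 1 with MOTS-c. The authors' deposited table gives 2.24 for Gbp2, 3.13 for Gbp6, 1.81 and -1.08 for the Gbp5 probes and 1.21 for Gbp7, as signed folds where a negative sign means lower. The p-values of these probes in the authors' deposited table ran from 0.0545 to 0.550, so 0 were under 0.05.

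The lists of related genes below are read beside the shares over all genes tested, each by its brightest probe: 0.00889% passed an adjusted p under 0.05, 10.8% were higher and 14.1% lower at an unadjusted p under 0.05, and 15.8% had all MOTS-c arrays above and 19.1% all below the vehicle arrays. The chain through which interferon gamma reaches these genes was described with a list of 14, all tested. Of them 12 were higher and 2 lower, with a median of 0.34, which was 0.23 without vehicle 1 and 0.54 without vehicle 2; 0 passed an adjusted p under 0.05, 3 had an unadjusted p under 0.05, and 5 had all MOTS-c arrays above all vehicle arrays. Ifng itself read -5.45, -2.28 and -3.51 on vehicle and -2.52, -1.92 and -3.27 on MOTS-c arrays. Its groups overlapped, vehicle 1 alone stood far below and was not well above background, and its difference of 1.18 ± 0.76 (limma, adjusted p = 0.345) was 0.32 without that array. The receptor genes Ifngr1 and Ifngr2 were higher by 0.24 ± 0.14 and 0.36 ± 0.17 without overlap. Of the receptor kinases, Jak1 was higher by 0.24 ± 0.17 with overlap and Jak2 lower by -0.33 ± 0.19 without it.

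Irf1, a transcription factor that binds ISRE letters, read 2.58, 3.91 and 3.44 on vehicle and 3.88, 4.62 and 3.94 on MOTS-c arrays. It was higher by 0.84 ± 0.36 (limma, adjusted p = 0.201) with overlapping groups, and Irf8, its partner in myeloid and B cells, by 0.32 ± 0.26. Nlrc5, the activator of MHC class I genes, was higher by 1.02 ± 0.30 by its brightest probe and by 0.44 by the other, and Socs1, the feedback inhibitor, by 0.81 ± 0.30. Both kept their groups apart.

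Genes that raise interferon gamma in lymphocytes, such as receptors for IL-12 and IL-18, formed a list of 10 with 9 higher and a median of 0.60, or 0.26 without vehicle 1. Stat4, which carries the IL-12 signal, was higher by 0.87 ± 0.20 (limma, adjusted p = 0.0846), Il12rb1 by 1.01 ± 0.45, Il18r1 by 0.66 ± 0.30 and Il12rb2 by 0.54 ± 0.20. Of these only Il12rb2 had overlapping groups. The chain of type I interferon, a list of 9 with 8 tested, had 6 higher and 2 lower and a median of 0.38, which was 0.058 without vehicle 1 and 0.61 without vehicle 2. Its receptor gene Ifnar2 was lower by -0.62 ± 0.20 without overlap, while Irf3 was higher by 0.52 ± 0.20, Tyk2 by 0.60 ± 0.24, Irf7 by 0.39 ± 0.28, Stat2 by 0.37 ± 0.27 and Irf9 by 0.14 ± 0.20. None of these list members passed an adjusted p under 0.05 in limma; 2 of the first list and 3 of the second had an unadjusted p under 0.05.

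Other targets of interferon gamma had higher means for the most part. Of 20 listed, 19 were tested, 16 were higher and the median was 0.60, or 0.29 without vehicle 1; 0 passed an adjusted p under 0.05 and 7 had an unadjusted p under 0.05. Among them were Psmb10, an immunoproteasome subunit, at 0.80 ± 0.27, Batf2 at 0.76 ± 0.23, Acod1, which makes itaconate, at 0.81 ± 0.28 and Ido1, which breaks down tryptophan, at 0.67 ± 0.25. The groups of Ido1 overlapped and those of the other three did not.

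The immunity-related GTPases, partners of the guanylate-binding proteins at vacuoles, had 7 of 8 genes tested, 5 higher and 2 lower, with a median of 0.62 and 0.48 without vehicle 1; 0 passed an adjusted p under 0.05 and 4 had an unadjusted p under 0.05. The effector GTPase Iigp1 read 0.030, 1.59 and 0.97 on vehicle and 1.79, 2.71 and 1.80 on MOTS-c arrays. Its groups did not overlap, MOTS-c 2 was the highest as for most members, and the difference was 1.24 ± 0.43 (limma, adjusted p = 0.145). Tgtp2 was higher by 1.29 ± 0.46 and the regulator Irgm1 by 0.60 ± 0.18, both without overlap, though the other Irgm1 probes ran from -0.55 to 0.83. Igtp, another regulator, was lower by -0.30 ± 0.22 with overlap.

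Genes induced by type I interferon went both ways: of 24, 17 were higher and 7 lower, with a median of 0.32. That median was 0.018 without vehicle 1, 0.79 without vehicle 2, 0.18 without MOTS-c 2 and 0.51 without MOTS-c 3. Oasl2 was higher by 1.27 ± 0.28 and Oas2, which senses double-stranded RNA, by 1.59 ± 0.44. The antiviral genes Rsad2 and Cmpk2, which lie side by side in the genome, were lower by -1.32 ± 0.32 and -1.45 ± 0.38. None of these 4 had overlapping groups, and their limma adjusted p-values ran from 0.0809 to 0.107. In the list as a whole 0 passed an adjusted p under 0.05, and at an unadjusted p under 0.05 stood 4 higher and 4 lower.

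Genes that act with or after the guanylate-binding proteins were described by 2 lists. The first held ubiquitin-like conjugation factors that place these GTPases on vacuoles, and with them Sqstm1 and Trim21, which are not of this kind. Of its 12 genes, 3 were higher, among them Trim21 by 0.56 ± 0.27 with overlapping groups. In 0 of the 12 all MOTS-c arrays lay above, and the median was -0.12. That median was -0.015 with quantile normalization, -0.016 with the authors' values and -0.028 with normexp, and it was -0.19 without MOTS-c 1 and -0.077 without MOTS-c 2. Map1lc3b was lower by -0.71 ± 0.20, Gabarapl2 by -0.59 ± 0.20, Atg12 by -0.36 ± 0.17 and Sqstm1 by -0.34 ± 0.15, all without overlap, and another Sqstm1 probe was higher by 0.23. The inflammasome genes had 7 of 7 tested genes higher of 8 listed, with a median of 0.40 and 0.12 without vehicle 1. Gsdmd, the pore former of pyroptosis, was higher by 0.79 ± 0.26 and Casp1 by 0.49 ± 0.20, both without overlap. Pycard at 0.40 ± 0.27, Aim2 at 0.24 ± 0.17 and Casp4, the sensor of cytosolic lipopolysaccharide, at 0.20 ± 0.18 had overlapping groups. In both lists 0 passed an adjusted p under 0.05 in limma, and at an unadjusted p under 0.05 stood 2 lower in the former and 2 higher in the latter.

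The listed large GTPases of the dynamin superfamily mostly did not share the direction. This list leaves out Mx1 and Mx2, which were counted with the type I interferon induced genes. Their differences were 0.25 ± 0.71 and 0.77 ± 0.46 with overlapping groups, or -0.17 and 0.35 without vehicle 1. Of 12 listed, 2 were higher and 10 lower, with a median of -0.22, which was -0.12 without vehicle 1, -0.067 with quantile normalization and with the authors' values, -0.051 with normexp and -0.084 when the probes of each gene were averaged. The atlastins, the nearest relatives of the guanylate-binding proteins by their GTPase domain, were lower: Atl2 by -0.74 ± 0.17 (limma, adjusted p = 0.0820), Atl1 by -0.65 ± 0.19 and Atl3 by -0.38 ± 0.18, all without overlap. Dnm1 was higher by 0.43 ± 0.21 without overlap, and its other probe was lower by -0.074. Of this list 0 passed an adjusted p under 0.05 and 2 had an unadjusted p under 0.05, both lower. Against vehicle 3 alone, on its shared slide, the medians kept their sign in all 9 lists. They ran from -0.15 for the list with the conjugation factors to 0.59 for the immunity-related GTPases.

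**Figure D4:**
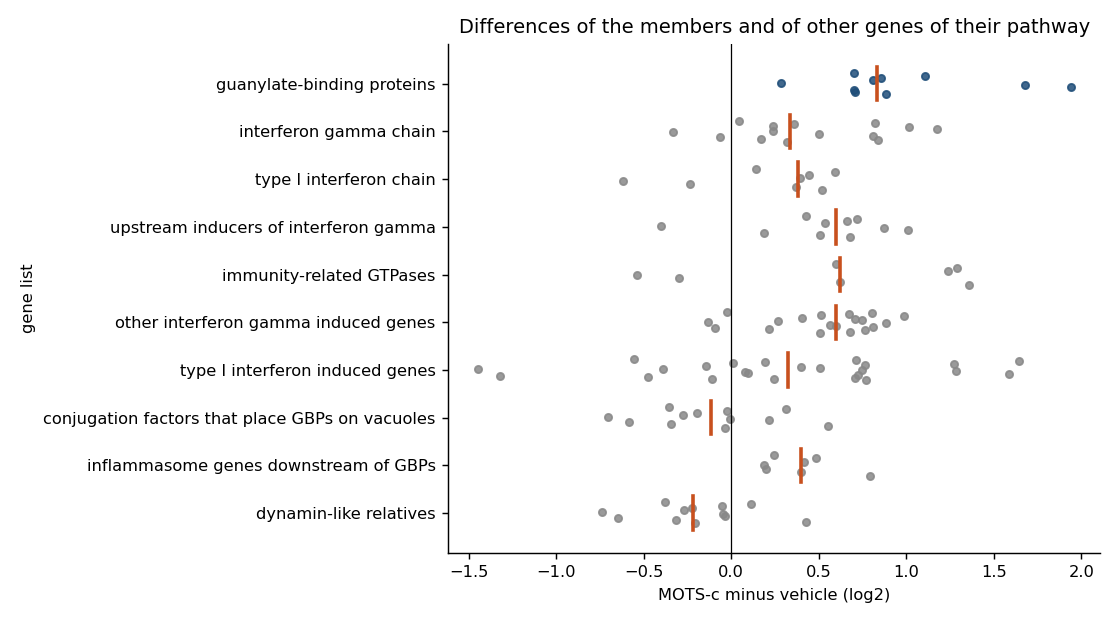
Difference of each tested gene, MOTS-c minus vehicle (horizontal axis, log2), for the 10 members (blue) and for 9 lists of genes of their pathway (grey), with a bar at each median; vertical scatter within a list has no meaning. The members' median is 0.83, the immunity-related GTPases' 0.62 and the dynamin-like relatives' -0.22.

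Markers of several spleen cell types moved over the same arrays as the guanylate-binding proteins. T cell genes were higher in 14 of 14, with a mean deviation from -1.40 to 0.084 on vehicle arrays and from 0.40 to 0.53 on MOTS-c arrays. All 14 were well above background on all 6 arrays. NK and cytotoxic genes were higher in 12 of 12, from -1.53 to 0.14 and from 0.23 to 0.63, and B cell genes in 11 of 11, from -1.34 to 0.31 and from 0.29 to 0.46. Of the NK genes, Ncr1 was dim on vehicle 1, at -6.21, where Gbp2b, at -6.44, was not well above background. The NK mean on that array is therefore less certain. Without vehicle 1 the medians of the T, NK and B cell lists, 0.93, 0.85 and 0.75, were 0.41, 0.43 and 0.30, and against vehicle 3 alone 0.38, 0.51 and 0.51. All MOTS-c arrays lay above all vehicle arrays in 13 of 14, 6 of 12 and 5 of 11 of these genes, beside 15.8% of all genes. Dendritic cell genes were higher in 8 of 9 with a median of 0.63, monocyte genes in 8 of 8 with 0.33, neutrophil genes in 11 of 11 with 1.05, megakaryocyte genes in 7 of 7 with 0.14 and endothelial and stromal genes in 7 of 9 with 0.24. In the same order, those medians were 0.41, 0.16, 0.87, -0.0042 and 0.066 without vehicle 1, and 0.38, 0.26, -0.014, -0.40 and 0.14 against vehicle 3 alone. Again in that order, 4, 2, 0, 0 and 2 of their genes had all MOTS-c arrays above all vehicle arrays. Macrophage genes were higher in 4 of 12, with deviations from -0.022 to 0.11 on vehicle and from -0.18 to 0.22 on MOTS-c arrays. Their median was -0.10, or -0.012 without vehicle 1 and -0.080 against vehicle 3 alone. Erythroid and cell cycle genes were lower in 14 of 14 and 12 of 12, with medians of -1.25 and -1.13. Those medians were -1.02 and -0.90 without vehicle 1, and -1.33 and -1.06 against vehicle 3 alone. In all 14 and all 12, each MOTS-c array lay below each vehicle array, as in 19.1% of all genes. The part of these cell types in the levels of the guanylate-binding proteins was not tested.

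**Figure D5:**
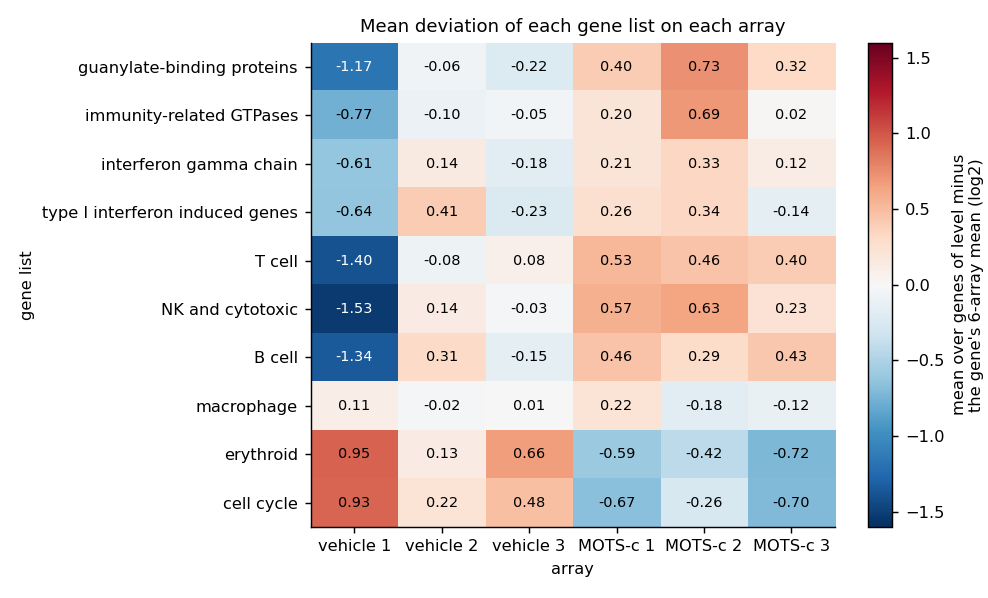
Mean over the genes of a list of the level minus the gene's own mean over 6 arrays (colour and printed value, log2), for the members and 9 other lists (rows) on each array (columns). The vehicle 1 column holds the lowest value of the members and of the T, NK and B cell lists, and the highest of the erythroid and cell cycle lists.

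The 8 named genes outside the family whose deviations over the 6 arrays lay nearest to the members' mean course, of 16923 named genes compared, had root mean square differences from it of 0.066 to 0.111, where the median over all named genes was 0.637. They were Arhgap22 at 0.066, Adgb, which encodes androglobin, at 0.081, and Tex14, a germ cell bridge protein, at 0.082. After them came Ly6c1, a surface antigen of lymphocytes, monocytes and endothelium, at 0.092, Inpp1, an inositol phosphatase, at 0.097, and Cacna1s, a calcium channel subunit of muscle, at 0.099. H2-Q5, a nonclassical MHC class I gene, stood at 0.102 and Klrk1, the activating receptor NKG2D of NK and T cells, at 0.111. Another 2 genes as near are known by a model name only. All 8 were lowest on vehicle 1 and highest on MOTS-c 2, the course by which they were picked. Adgb and Tex14 were dim, at -6.57 and -6.42 on vehicle 1, where Gbp2b, at -6.44, was not well above background. Their likeness to the course is therefore less certain.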

How the data were processed

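Spleen RNA was labelled with Cy3 and read on 6 arrays. Each array's processed signal intensity was deposited as Agilent Feature Extraction 11.0.1.1 wrote it, background-subtracted within the array and not normalized between arrays, per the file headers and the submitters' processing notes. The authors' deposited table holds log2 values quantile normalized between arrays, a signed fold given here as a score, and a p-value with its adjustment.

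Outlier spots were left out, spots of a probe were averaged on the log2 scale, and each array's 75th percentile was subtracted. Symbols were found for 38977 of 56605 probes. A probe was tested where either group had it well above background on each of its 3 arrays, which held for 33734, with limma 3.58.1 in R 4.3.3 (lmFit, eBayes, two-sided, Benjamini-Hochberg over all of them). The brightest tested probe stood for a gene, which left 22508 genes, 5575 of them unnamed probes. An exact permutation test of 3 against 3 cannot go below a p of 0.1, so none was run. The same fit was also run on simulated arrays of the same size, and the outcome is not given here. The number of arrays limits the precision.

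The members and all lists of pathway and marker genes were chosen with earlier results of these data known. Named are every member, from each pathway list the 4 genes with the smallest p, a panel of 16 pathway genes, and the 8 named genes most like the members' course; genes known by a model name are counted only, and a gene that the rule names is not reported here. Gbp11 and the neighbouring genes were added by name and position, and Mx1 and Mx2 by name.

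Alternatives were quantile normalization; normexp with an offset of 50 on the median signal and median background (the mean signal that had been planned is not in the arrays' columns used here), then quantile normalization; other filters; the fit on 1 probe per gene; the mean of a gene's probes; the authors' values; blocks for replicate number and for slide; slide 2 alone; and each array left out. Per the file headers, vehicle 1 and 2 lay on slide 1 and the other arrays on slide 2. Replicate numbers follow the titles, from which the descriptions differ for vehicle 3 and MOTS-c 3. Coordinates of probes are on mm9, as in the array design, and promoter sequences are from RefSeq on GRCm38.p6.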

Additional observations from a re-analysis of the deposited data

How the results depend on the processing

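With 16 alternatives, 156 of 158 differences of single member genes were higher with MOTS-c; the 2 lower ones were Gbp7 at -0.20, with the slide as a block and within slide 2. Of the 158, 152 moved by less than the spread between replicates, a spread that includes the low vehicle 1 array. The others were Gbp2b at 0.72, Gbp9 at 0.40 and Gbp10 at 0.39 with normexp, Gbp5 at 0.37 with the mean of its probes, and Gbp7 in both slide settings; the cause was not tested. The members' median ran from 0.56 (without vehicle 1) to 1.01 (without vehicle 2) and was 0.63 with the slide as a block, and 8 to 10 probes had all MOTS-c arrays above all vehicle arrays. Leaving out arrays in turn gave 0 to 1 member probes past an adjusted p under 0.05, the 1 being Gbp2 without vehicle 2, and 0 to 6 under 0.1. With all arrays the limma count under 0.1 was 3, as with normexp and with the filter on all 6 arrays. It was 2 with the authors' values, and 0 with quantile normalization, no filter, 1 probe per gene or the replicate block.

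Over all probes, 2 passed at 0.05. That count was 0 with normexp, with no filter, with the filter on all 6 arrays, within slide 2 and with the authors' values, and 1 with the slide as a block. Leaving out arrays in turn gave 0 to 1113, the highest without vehicle 2 and 39 without vehicle 3.

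Same-numbered samples' deviations from their group means correlated at -0.17, 0.0064 and -0.090, and those of other pairs from -0.13 to 0.19. These few values gave no sign that replicate numbers pair the samples, and they cannot exclude it. With the replicate block the members' median was 0.83 and 0 of all probes passed. The authors' table and the filter on all 6 arrays gave no value for Gbp2b, and the mean of a gene's probes gave values for genes only. Dim probes such as Gbp2b have the least certain differences, since their signal is nearest to background.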
